A study of Mus musculus with 6 samples.

Results

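The genes described here encode the proteins of the mitochondrial ribosome. They are the protein-coding genes whose symbol begins with Mrpl or Mrps and a digit, and 78 of the 55804 genes in the count table met that rule. The libraries are bulk RNA-seq of C2C12, mouse myoblasts that stop dividing and fuse into myotubes in medium with little serum. The 3 Prr33-gRNA libraries came from C2C12 cells in which CRISPR/Cas9 with a guide against Prr33 had lowered that gene. The labels call this genotype knocked down. The 3 Ctrl-gRNA libraries came from C2C12 cells with a control guide, labelled wild type. All 6 were taken after 3 days in low-serum differentiation medium with horse serum, following growth in fetal bovine serum, and the labels state neither how many lines or clones stand behind each guide nor whether replicates were grown separately. An effect of the guide and a difference between derived lines cannot be told apart, and p-values reflect only how far these libraries scatter, which may be technical variation. The comparison asks how expression in differentiating myoblasts differs when Prr33 has been targeted, and it is read here for the machinery of mitochondrial protein synthesis.

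Mitochondria keep their own ribosomes, which make the few inner-membrane proteins of the respiratory chain and ATP synthase that mitochondrial DNA encodes. The ribosomal RNAs come from mitochondrial DNA, whereas each ribosomal protein is encoded in the nucleus, made in the cytosol and imported. Part of these proteins belong to families shared with bacterial ribosomes and the rest are found only in mitochondria. Skeletal muscle differentiation is known to be accompanied by mitochondrial growth.

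Total counts ran from 17412383 to 19471762 in the Prr33-gRNA libraries and from 17006381 to 19118010 in the Ctrl-gRNA libraries. Prr33 itself averaged 43.8 ± 1.82 CPM in Prr33-gRNA and 58.6 ± 3.76 CPM in Ctrl-gRNA (SD, n = 3 each), where CPM is the count of a gene scaled to library size with TMM factors. The 8 myogenic markers (Myod1, Myog, Des, Myh3, Acta1, Ckm, Cdh15 and Mymk) were all detected, with a summed level of 14400 to 15200 CPM in Prr33-gRNA and 25500 to 26100 CPM in Ctrl-gRNA. That sum is made mostly of Myh3 and Acta1. Except for Ckm, each of the 8 markers was called lower in Prr33-gRNA (edgeR adjusted p below 0.05). The log2 fold changes of the lower markers ran from -1.63 (Myog) and -1.59 (Myod1) to -0.14 (Cdh15). Ckm was higher and averaged 713 ± 26.1 CPM in Prr33-gRNA and 606 ± 5.38 CPM in Ctrl-gRNA (log2 fold change 0.24, edgeR adjusted p = 8.03e-06). Summed markers of fibroblasts reached at most 5.49 CPM in Prr33-gRNA and 7.40 CPM in Ctrl-gRNA. Markers of endothelium, leukocytes and epithelium stayed at most 1.55 CPM in Prr33-gRNA and 1.82 CPM in Ctrl-gRNA, and those of adipocytes and of neurons and glia were at 0 in all libraries. In bulk RNA, fewer cells of a kind and less RNA per cell cannot be told apart, and the part of the myogenic markers in the values below was not tested.

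Most mitochondrial ribosomal protein genes were expressed at similar levels in both groups. Of 76 tested members 15 rose, 15 fell and 46 did not pass the test, which is 39.5% called, against 52.1% of all 14651 tested genes and 57.1% of the protein-coding ones (edgeR quasi-likelihood test, adjusted p below 0.05). Among all tested genes 25.5% were higher and 26.6% lower, against 19.7% and 19.7% of the members. Their median log2 fold change (Prr33-gRNA over Ctrl-gRNA) was -0.05, with quartiles of -0.16 and 0.16, and the median over all tested genes was 0.00, with quartiles of -0.32 and 0.24. An absolute log2 fold change below 0.3 was found for 63 of the 76 members (82.9%) and for 54.0% of all tested genes. At least 2-fold and past the threshold was 1 member, Mrps16, or 1.32%, where 10.9% of all tested genes were. The groups did not overlap for 40 of 76 members, or 52.6%, against 57.9% of all tested genes. Of these, 20 members were higher and 20 lower in Prr33-gRNA, where 28.6% of all tested genes were higher and 29.3% lower without overlap.

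The split between rises and falls depends on the scaling. TMM factors were 1.03 to 1.04 in Prr33-gRNA and 0.969 to 0.971 in Ctrl-gRNA. With library size alone, 26 members rose and 9 fell, and the median moved to 0.04 while that of all tested genes moved to 0.09. Rises also outnumbered falls over all tested genes under this scaling. The excess of rises is thus not particular to the members. Without Ctrl-gRNA replicate 1, 12 members rose and 9 fell. As a share of all counts the members took 0.271%, 0.280% and 0.267% in the Prr33-gRNA libraries and 0.262%, 0.258% and 0.258% in the Ctrl-gRNA libraries. After TMM scaling their summed level was 2640, 2693 and 2603 CPM in Prr33-gRNA and 2706, 2658 and 2662 CPM in Ctrl-gRNA. The unscaled shares were thus all higher in Prr33-gRNA, while the scaled sums overlapped between the groups.

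**Figure D1:**
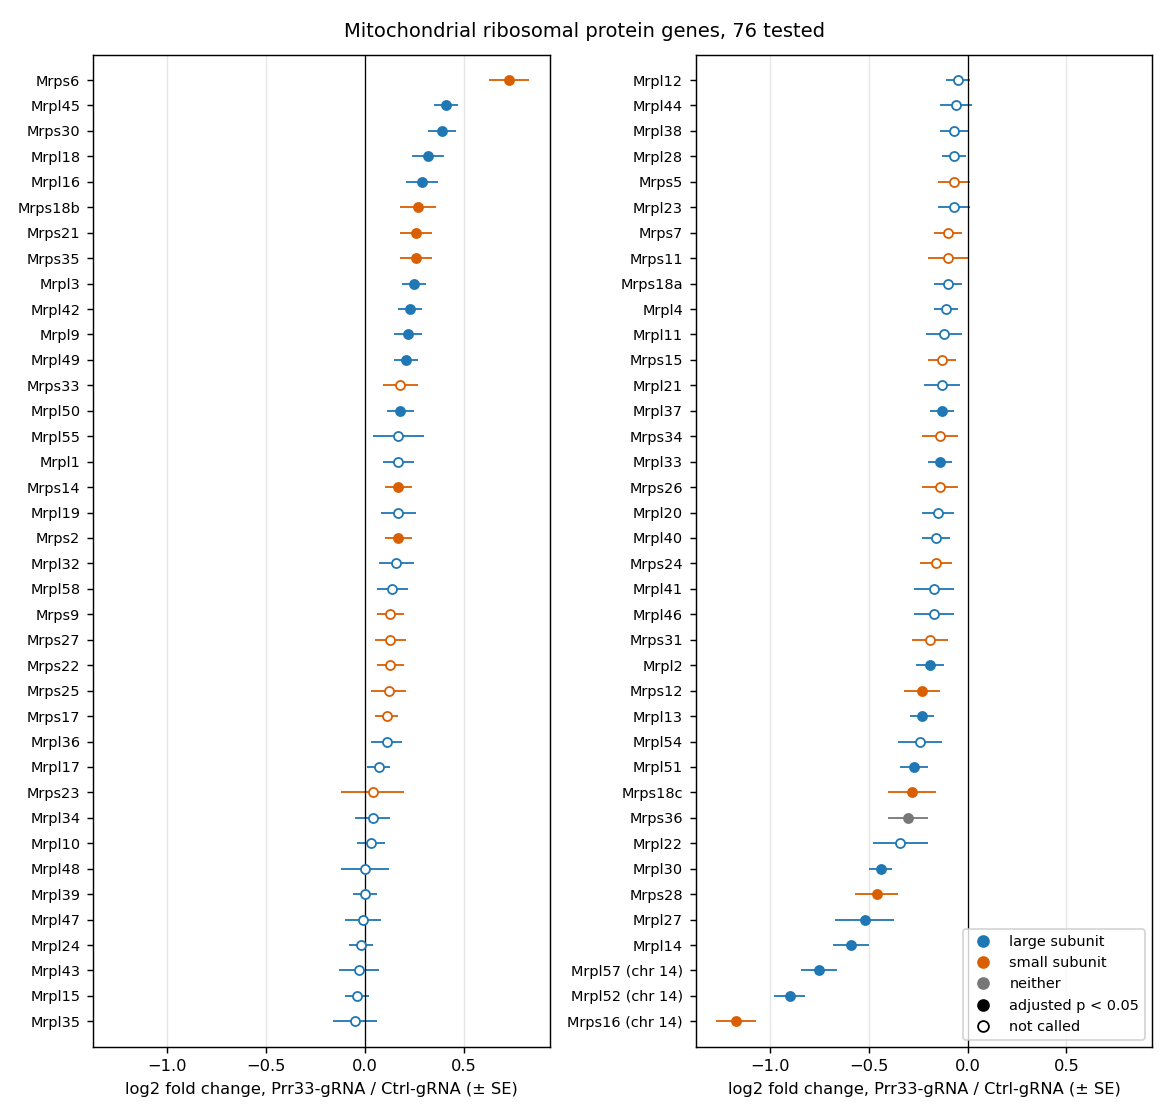
Log2 fold change of Prr33-gRNA over Ctrl-gRNA (x axis, ± SE from edgeR) for each of the 76 tested members, sorted from the highest at the top left to the lowest at the bottom right. Colours give the subunit and filled points an adjusted p below 0.05; the values run from 0.73 for Mrps6 to -1.17 for Mrps16, and the 3 lowest are the genes on chromosome 14.

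The members at both ends of that order are introduced by the sequence before their start. Shown for each are the 150 bases that end just before the gene model, 5′ to 3′ on the gene's own strand, from RefSeq promoters of the GRCm38.p6 build. The first 3 lie on chromosome 14 and had the deepest falls, and the other 3 had the highest rises. Capitals mark matches to the binding words searched, which are CCGGAAG (bound by GABP and other ETS factors), GCGC and TGCGC with any 1 base between them (bound by NRF1) and AAGATGGCG (bound by YY1), on either strand. These factors are known regulators of nuclear genes for mitochondria.
Mrps16 (chr14:20393635-20393784, minus strand): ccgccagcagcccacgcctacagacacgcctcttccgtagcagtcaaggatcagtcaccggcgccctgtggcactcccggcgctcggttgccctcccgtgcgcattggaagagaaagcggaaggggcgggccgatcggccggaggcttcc
Mrpl52 (chr14:54426759-54426908, plus strand): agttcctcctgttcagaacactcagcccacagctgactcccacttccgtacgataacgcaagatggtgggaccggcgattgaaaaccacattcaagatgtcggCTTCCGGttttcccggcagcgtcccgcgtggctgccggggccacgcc
Mrpl57 (chr14:57826084-57826233, plus strand): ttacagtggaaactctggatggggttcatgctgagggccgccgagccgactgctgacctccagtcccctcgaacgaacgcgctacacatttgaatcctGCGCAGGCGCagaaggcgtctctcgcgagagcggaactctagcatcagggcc
Mrps6 (chr16:92058120-92058269, plus strand): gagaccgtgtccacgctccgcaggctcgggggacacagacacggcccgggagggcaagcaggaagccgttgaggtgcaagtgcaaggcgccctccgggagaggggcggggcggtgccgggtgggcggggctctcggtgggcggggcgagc
Mrpl45 (chr11:97315566-97315715, plus strand): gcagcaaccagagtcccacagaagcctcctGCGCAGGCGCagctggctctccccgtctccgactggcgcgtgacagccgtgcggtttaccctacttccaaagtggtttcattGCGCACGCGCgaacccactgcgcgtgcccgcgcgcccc
Mrps30 (chr13:118387253-118387402, minus strand): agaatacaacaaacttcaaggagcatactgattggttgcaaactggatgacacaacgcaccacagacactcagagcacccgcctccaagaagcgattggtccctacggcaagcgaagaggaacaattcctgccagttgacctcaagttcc
Mrpl52 held the ETS word in this stretch, Mrpl57 held 1 match to the NRF1 word and Mrpl45 held 2. The stretches of Mrps16, Mrps6 and Mrps30 held none of the 3 words.

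The words were then counted over the whole window of 250 bases before to 50 after each RefSeq start, which was present for 69 of the 78 members. The ETS word was in 24 member windows (34.8%), in 8.86% of all 32851 windows and in 11.6% of the 21262 windows of protein-coding genes. The NRF1 word was in 13 member windows (18.8%) and 4.6% of all windows, and the YY1 word in 8 (11.6%) and 1.40% of all windows. Over the windows of protein-coding genes the shares were 6.38% for the NRF1 word and 1.83% for the YY1 word. At least 1 of the 3 was in 39 member windows (56.5%), against 13.6% of all. Among tested members off chromosome 14 the median log2 fold change was 0.04 for the 21 with the ETS word and -0.02 for the 43 without it. For the NRF1 word it was 0.04 for the 12 with and -0.02 for the 52 without. For the YY1 word it was -0.08 for the 8 with and 0.00 for the 56 without. These are counts of letters in a window and say nothing of binding in these cells.

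The 3 members on chromosome 14 fell the most. Mrps16, a small-subunit protein of a bacterial family, had 9.19, 10.5 and 10.8 CPM in the Prr33-gRNA libraries and 24, 22 and 22.6 CPM in the Ctrl-gRNA libraries. All Prr33-gRNA values lay far below the Ctrl-gRNA values, a log2 fold change of -1.17 (SE 0.10; edgeR adjusted p = 1.39e-11). Mrpl52, a large-subunit protein found only in mitochondria, had 21.8, 21.7 and 23.9 CPM in Prr33-gRNA against 43.2, 38.7 and 43.8 CPM in Ctrl-gRNA. Its groups lay far apart, with a log2 fold change of -0.90 (SE 0.08; edgeR adjusted p = 7.19e-12). Mrpl57, likewise a mitochondria-specific large-subunit protein, had 16.6, 19.4 and 14.9 CPM in Prr33-gRNA against 28, 28.7 and 28.7 CPM in Ctrl-gRNA. It fell by 0.75 on the log2 scale (SE 0.09; edgeR adjusted p = 2.40e-08), and its Prr33-gRNA libraries were more scattered than its Ctrl-gRNA libraries. Another subunit gene of that chromosome, Chchd1, has a name outside the rule and encodes a small-subunit protein. It had 14.7, 18.5 and 14.5 CPM in Prr33-gRNA and 28.7, 27.8 and 33.6 CPM in Ctrl-gRNA (log2 fold change -0.92, SE 0.10).

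These falls resembled those of their neighbours. The 400 tested protein-coding genes of chromosome 14 had a median log2 fold change of -0.90, with quartiles of -1.15 and -0.66, and 92.8% of them were called. The 3 members lie on it at 20389304 to 20393634 (Mrps16), 54426909 to 54429756 (Mrpl52) and 57826234 to 57829296 (Mrpl57) in mm10. Mrps16 is far from Mrpl52 and Mrpl57, which lie nearer each other. Their values of -1.17, -0.90 and -0.75 stand on either side of the chromosome's median. Without them, 73 members on the other chromosomes had 15 rises, 12 falls and a median of -0.04, and 37.0% were called. The tested protein-coding genes of the other chromosomes had a median of 0.02, and 55.9% were called. Members lie on 17 chromosomes, and on no other was the median of the members below -0.23.

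**Figure D2:**
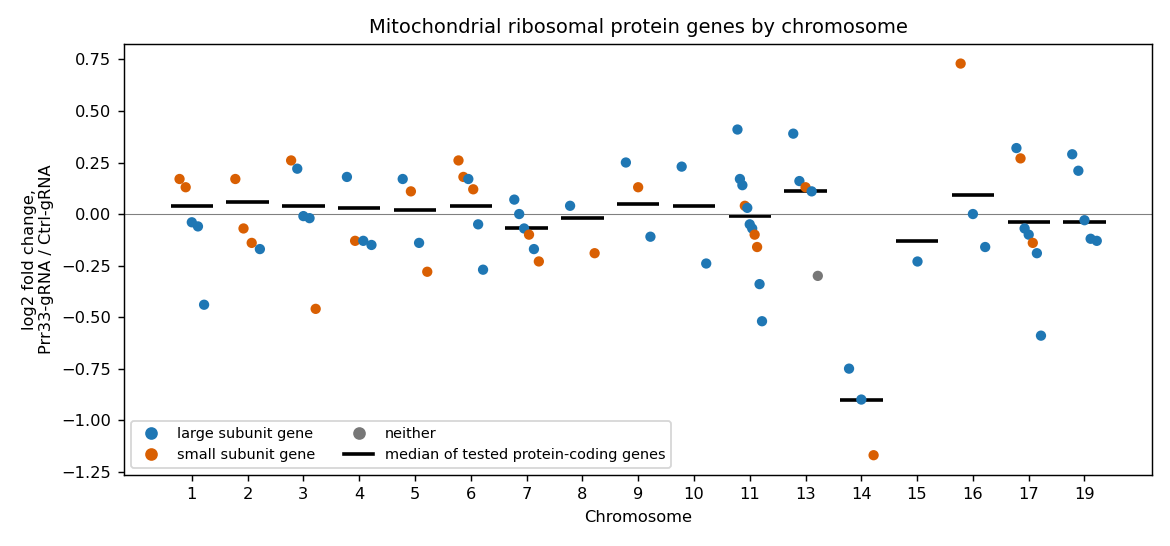
Log2 fold change of Prr33-gRNA over Ctrl-gRNA (y axis) for the tested members on each chromosome that holds any (x axis). Points are genes, coloured by subunit, and black bars are the median of all tested protein-coding genes on the chromosome; the bar stands at -0.90 for chromosome 14 and within 0.13 of 0 for the others drawn.

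Outside chromosome 14 the deepest falls were those of Mrpl14, Mrpl27, Mrps28 and Mrpl30. Mrpl14, on which the anti-association factor Malsu1 docks in the human large subunit, had 20, 21.4 and 17.4 CPM in Prr33-gRNA against 32.7, 28.2 and 27.3 CPM in Ctrl-gRNA. The groups did not overlap (log2 fold change -0.59, SE 0.09, edgeR adjusted p = 1.98e-06). Malsu1 itself averaged 19.6 ± 2.39 CPM in Prr33-gRNA and 19.6 ± 3.02 CPM in Ctrl-gRNA (SD, n = 3 each), was not called, and shares 40.5% of its exonic bases with an opposite-strand gene. Mrpl27, whose bacterial relative reaches into the peptidyl transferase centre, had 8.32, 8.02 and 6 CPM in Prr33-gRNA against 11.6, 11.5 and 8.81 CPM in Ctrl-gRNA. Replicate 3 was the lowest of both groups, and the fall was 0.52 on the log2 scale (log2 fold change -0.52, SE 0.15). Mrps28, a small-subunit protein, fell to 12.1 ± 0.945 CPM in Prr33-gRNA, against 16.6 ± 1.13 CPM in Ctrl-gRNA (log2 fold change -0.46, SE 0.11). Mrpl30, one of the more abundant transcripts, had 58.6, 64.4 and 58.1 CPM in Prr33-gRNA and 77.8, 80.7 and 87.2 CPM in Ctrl-gRNA. All Prr33-gRNA values lay below the Ctrl-gRNA values, with a log2 fold change of -0.44 (SE 0.06; edgeR adjusted p = 1.33e-07).

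Smaller falls were called for 8 more members. Mrpl51 and Mrpl13 had log2 fold changes of -0.27 and -0.23 and passed in each of the 16 alternative fits. Mrps12, a protein of the decoding centre, and Mrpl2, which lies near the peptidyl transferase centre, had -0.23 and -0.19 (edgeR adjusted p = 0.0220 and 0.0244). Mrpl33 and Mrpl37 were called by a narrow margin (log2 fold changes of -0.14 and -0.13; edgeR adjusted p = 0.0494 and 0.0497). None of Mrps12, Mrpl2, Mrpl33 and Mrpl37 was called in each of the 16 alternative fits. Mrps36, which is now regarded as a part of the oxoglutarate dehydrogenase complex and not of the ribosome, had 16.1, 16.8 and 17.1 CPM in Prr33-gRNA and 22.2, 20.5 and 18.9 CPM in Ctrl-gRNA. The log2 fold change was -0.30 (edgeR adjusted p = 0.00868), and its call was lost without Ctrl-gRNA replicate 1 and under library-size scaling (edgeR adjusted p = 0.0773 and 0.0600). The last of the 8, Mrps18c, is described with its relatives below.

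Mrps6 rose the most. It encodes a small-subunit protein of a bacterial family and had 21.9, 22.1 and 23.0 CPM in the Prr33-gRNA libraries against 13.1, 13.3 and 14 CPM in the Ctrl-gRNA libraries. Values within each group lay close together and the groups were well apart, with a log2 fold change of 0.73 (SE 0.10; edgeR adjusted p = 8.51e-08). Mrps6 shares 19.9% of its exonic bases, on the same strand, with Slc5a3 and the predicted gene Gm49711 in GENCODE M21. Slc5a3, the gene of a myo-inositol transporter, had 37.5, 34.6 and 40.5 CPM in Prr33-gRNA against 9.46, 11.6 and 9.65 CPM in Ctrl-gRNA, a log2 fold change of 1.88 (SE 0.10). Reads from the shared bases cannot be assigned to 1 of these genes, and the part of Slc5a3 in the rise of Mrps6 was not tested.

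Mrpl45 and Mrps30 followed. Mrpl45, which sits at the exit of the nascent-chain tunnel and ties the ribosome to the inner membrane, had 77.4, 77.6 and 78.3 CPM in Prr33-gRNA against 52.0, 59.7 and 64.1 CPM in Ctrl-gRNA. All Prr33-gRNA libraries stood above the Ctrl-gRNA libraries, among which replicate 1 was the lowest, and it rose by 0.41 on the log2 scale (SE 0.06; edgeR adjusted p = 1.60e-06). Mrps30, a protein of the large subunit despite its symbol, had 43.2, 38 and 46.1 CPM in Prr33-gRNA against 32.8, 32.1 and 32.2 CPM in Ctrl-gRNA. It rose by 0.39 on the log2 scale (SE 0.07; edgeR adjusted p = 3.50e-05), and its Prr33-gRNA libraries varied more than its Ctrl-gRNA libraries. Mrpl18, of the central protuberance, averaged 40.8 ± 0.745 CPM in Prr33-gRNA and 32.7 ± 3.69 CPM in Ctrl-gRNA (log2 fold change 0.32). Mrpl16, of a bacterial family, averaged 37.0 ± 2.39 CPM in Prr33-gRNA and 30.3 ± 2.54 CPM in Ctrl-gRNA (0.29). Mrps35, Mrpl3, Mrpl42, Mrpl9 and Mrpl49 rose by 0.26, 0.25, 0.23, 0.22 and 0.21 on the log2 scale, each with no overlap between the groups. The other 5 rises, those of Mrps18b, Mrps21, Mrpl50, Mrps14 and Mrps2, ran from 0.17 to 0.27, and the groups overlapped for Mrps18b, Mrps21 and Mrps14. None of these 5 was called in each of the 16 alternative fits. Mrps21 lost its call without Ctrl-gRNA replicate 3 or Prr33-gRNA replicate 2 (edgeR adjusted p = 0.0839 and 0.0739).

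**Figure D3:**
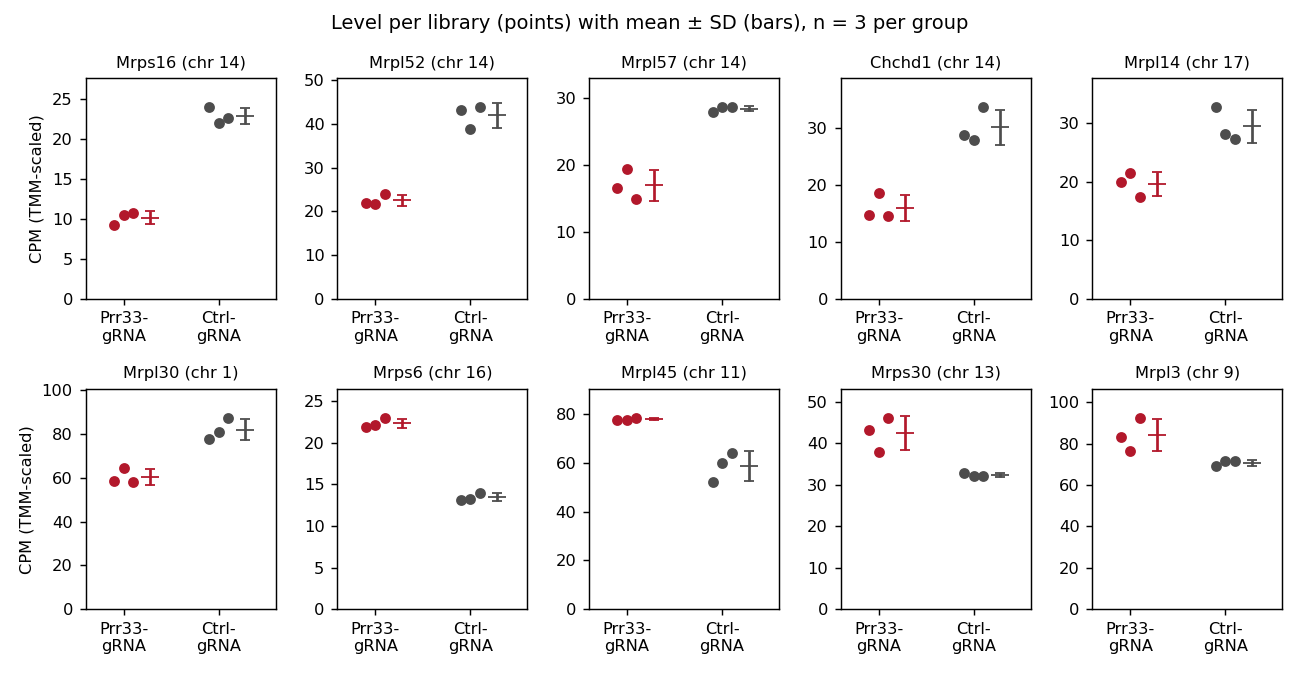
Level in CPM (y axis from 0, TMM-scaled) in each Prr33-gRNA library (left, red) and each Ctrl-gRNA library (right, grey) for 10 ribosomal protein genes, with mean ± SD beside the points. The first 6 panels show genes that fell, 4 of them on chromosome 14, and the last 4 show genes that rose; in no panel do the groups overlap.

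Both subunits held rises and falls. Of 50 tested large-subunit genes 9 rose and 10 fell, and the median was -0.05 on the log2 scale. Of 25 tested small-subunit genes 6 rose and 4 fell (40.0% called), with a median of 0.04. Small-subunit counts dropped to 3 rises and 2 falls without Ctrl-gRNA replicate 1 and likewise without Prr33-gRNA replicate 3. Members of bacterial families had 9 rises and 10 falls of 47 tested (40.4% called, median -0.05). Those specific to mitochondria had 6 rises and 4 falls of 28 (35.7% called, median -0.01). Log2 fold changes ran from -1.17 to 0.73 over the bacterial families and from -0.90 to 0.41 over those specific to mitochondria. Off chromosome 14 they ran from -0.59 to 0.73 (9 rises and 9 falls of 46 tested) and from -0.27 to 0.41 (6 rises and 2 falls of 26). The large subunit had 9 rises and 8 falls of 48 off that chromosome, and the small subunit 6 and 3 of 24. There 39.1% of the bacterial-family, 30.8% of the mitochondria-specific, 35.4% of the large-subunit and 37.5% of the small-subunit genes were called. The share for tested protein-coding genes off chromosome 14 was 55.9%. A difference between these sets was not tested. The summed level of the large subunit was 1914 ± 33.7 CPM in Prr33-gRNA and 1947 ± 18.1 CPM in Ctrl-gRNA, and that of the small subunit was 715 ± 12.4 CPM in Prr33-gRNA and 708 ± 10.6 CPM in Ctrl-gRNA (SD, n = 3 each). After this TMM scaling the means lay closer together than the SDs of the groups added up in both cases. As an unscaled share of all counts the large subunit took 0.197 ± 0.00463% in Prr33-gRNA and 0.189 ± 0.00161% in Ctrl-gRNA. The small subunit took 0.0736 ± 0.00176% in Prr33-gRNA and 0.0685 ± 0.000946% in Ctrl-gRNA. For both subunits the unscaled shares were higher in Prr33-gRNA, with no overlap between the groups.

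Named functional sites hold too few genes for a count to be set against the 39.5% called over all members. The stalk that recruits translation factors is built on Mrpl10, Mrpl11 and Mrpl12, and the 3 genes were not called by edgeR. Mrpl12, which also binds mitochondrial RNA polymerase, had 74.8, 84.1 and 79.9 CPM in Prr33-gRNA against 88.2, 79.3 and 78.7 CPM in Ctrl-gRNA, and the groups overlapped (log2 fold change -0.05, SE 0.06). Mrpl10 averaged 50.8 ± 3.39 CPM in Prr33-gRNA and 49.6 ± 1.86 CPM in Ctrl-gRNA. Around the tunnel exit Mrpl45 alone of 6 genes rose, and Mrpl17, Mrpl22, Mrpl23, Mrpl24 and Mrpl47 were not called. Mrpl22 had 16.7, 17.9 and 11.7 CPM in Prr33-gRNA against 22.6, 18.1 and 17.7 CPM in Ctrl-gRNA and missed the threshold (edgeR adjusted p = 0.0515). Mrpl23, a close neighbour of Prr33 on chromosome 7, had 36.5, 34.7 and 32.2 CPM in Prr33-gRNA against 37.0, 38.7 and 32.8 CPM in Ctrl-gRNA. Mrpl58, a release factor built into the large subunit, averaged 30.6 ± 1.82 CPM in Prr33-gRNA and 27.8 ± 0.396 CPM in Ctrl-gRNA; its groups did not overlap and it did not pass (log2 fold change 0.14, edgeR adjusted p = 0.145), but it was called under library-size scaling (log2 fold change 0.23, edgeR adjusted p = 0.0142).

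The ancestral S18 protein has 3 copies. Mrps18a, which is part of the large subunit, had 31.3, 34.6 and 32.4 CPM in Prr33-gRNA against 34.8, 36.9 and 34.0 CPM in Ctrl-gRNA and was not called (log2 fold change -0.10). Mrps18b, of the small subunit, had 23.9, 21.4 and 25.4 CPM in Prr33-gRNA against 18.2, 21.8 and 18.9 CPM in Ctrl-gRNA. It was called higher (log2 fold change 0.27, edgeR adjusted p = 0.0172), with 1 Prr33-gRNA library just below the highest Ctrl-gRNA library, and lost the call without Ctrl-gRNA replicate 1 or 3 or Prr33-gRNA replicate 3. Mrps18c, also of the small subunit, had 12.7, 11.9 and 10.9 CPM in Prr33-gRNA against 16.2, 13.2 and 13.4 CPM in Ctrl-gRNA. It passed narrowly (log2 fold change -0.28, edgeR adjusted p = 0.0473) and was not called by DESeq2 on all libraries (adjusted p = 0.0880). With edgeR its call was lost without Ctrl-gRNA replicate 1 or Prr33-gRNA replicate 2 or 3 (edgeR adjusted p = 0.0728 to 0.319). The same held under library-size scaling (edgeR adjusted p = 0.179) and with no filter on low counts (edgeR adjusted p = 0.0840). Mrps18b shares 30.5% of its exonic bases with an opposite-strand gene and Mrps18c 23.2% with a same-strand gene. A difference between the 3 copies was not tested.

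Levels per length varied widely within the family. Mean FPKM over the 6 libraries (counts scaled to gene length and library depth, as the authors computed it) had a median of 12.6 over the 76 tested members and quartiles of 7.84 and 21.2. Mrpl12, Mrps21 and Mrpl34 were the most abundant per length, at 52.5, 43.5 and 35.6 FPKM. Mrpl48, Mrps25 and Mrps35 were the least abundant, at 1.63, 2.97 and 3.11 FPKM. The length used is the sum of all exonic bases of the gene, 8152 for Mrpl48 and 607 for Mrpl34, so a gene with long alternative exons is listed low. Each tested member had at least 108 counts in every library, and the coefficient of variation of CPM between replicates had a median of 5.84% in Prr33-gRNA and 6.34% in Ctrl-gRNA.

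Changes were also set beside gene length. Across the 73 tested members off chromosome 14, Spearman's rho between gene length and log2 fold change was 0.30, and across 11667 protein-coding genes off chromosome 14 it was 0.15. Genes share the same libraries and are not independent replicates, so these are descriptions. Among the shortest members (607 to 1667 bases) 3 rose and 7 fell of 25, with a median of -0.15. The 882 protein-coding genes of that length had a median of -0.08, with 18.1% higher and 31.2% lower. Of 23 members of middle length (1693 to 3291 bases) 8 rose and 1 fell, with a median of -0.02, where 21.7% of 2744 protein-coding genes were higher and 29.2% lower. Among the longest (3332 to 8631 bases) 4 rose and 4 fell of 25, with a median of 0.07, against 0.03 for 6101 protein-coding genes of that length, of which 30.9% were higher and 25.6% lower.

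Mrps10 and Mrpl53 could not be tested. Both are listed at 0 counts in all 6 libraries, and no level can be read from that. Of the exonic bases of Mrpl53, 88.0% lie in exons of Gm42688 on the same strand, and reads over them may not have been counted for either gene. Mrps10 shares no exonic base with another gene in GENCODE M21. In all, 33 members share exonic bases with another gene, 8 of them on the same strand and 28 on the opposite one, and no source used here gives the strand setting of the counting. Mrps34 shares 77.8% and Mrps25 69.8%, so their levels are uncertain, and neither was called. Without Prr33-gRNA replicate 2 Mrps34 was called lower (log2 fold change -0.23, edgeR adjusted p = 0.0347). The 44 tested members with no shared exonic base had 8 rises and 9 falls (38.6% called) and a median of -0.07. The 32 with shared bases had 7 rises and 6 falls (40.6% called) and a median of -0.02. Of all tested genes 52.1% were called. Of 5 pseudogenes with Mrpl or Mrps symbols, Mrpl48-ps and Mrpl23-ps1 were tested and neither was called.

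The 5 ribosomal proteins that carry other symbols were divided in the same way. Besides Chchd1, Gadd45gip1, a large-subunit protein that also binds Gadd45 proteins, had 13.7, 12 and 11 CPM in Prr33-gRNA against 16.9, 15.2 and 15.5 CPM in Ctrl-gRNA. It fell with no overlap between the groups (log2 fold change -0.38, SE 0.11). Ptcd3, an RNA-binding small-subunit protein, rose by 0.14 on the log2 scale (edgeR adjusted p = 0.0352), but was not called by DESeq2 (adjusted p = 0.0605), by limma on FPKM, with chromosome 14 left out, or without Ctrl-gRNA replicate 1, Prr33-gRNA replicate 1 or Prr33-gRNA replicate 3. Dap3, a GTP-binding small-subunit protein, averaged 57.9 ± 2.86 CPM in Prr33-gRNA and 56.7 ± 4.35 CPM in Ctrl-gRNA. Aurkaip1, of the small subunit, averaged 59.8 ± 5.40 CPM in Prr33-gRNA and 62.2 ± 3.06 CPM in Ctrl-gRNA, and neither Dap3 nor Aurkaip1 was called.

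Both ribosomal RNAs were lower in Prr33-gRNA. The small-subunit rRNA mt-Rnr1 had 3807, 3443 and 4206 counts in the Prr33-gRNA libraries and 20614, 17460 and 20203 counts in the Ctrl-gRNA libraries. In CPM that was 203 ± 10.7 in Prr33-gRNA and 1130 ± 72.7 in Ctrl-gRNA, a log2 fold change of -2.47 (SE 0.05; edgeR adjusted p = 3.28e-28). The large-subunit rRNA mt-Rnr2 had 13637, 12138 and 16033 counts in Prr33-gRNA and 19946, 18082 and 20312 counts in Ctrl-gRNA, with a log2 fold change of -0.61 (SE 0.06; edgeR adjusted p = 7.56e-07). Neither rRNA overlapped between the groups. The ratio of mt-Rnr1 to mt-Rnr2 counts, which does not depend on library scaling, was 0.279, 0.284 and 0.262 in Prr33-gRNA and 1.03, 0.966 and 0.995 in Ctrl-gRNA. Of 11 tested protein genes encoded in the mitochondrial DNA 7 rose, where 25.5% of all tested genes did, all 11 had a positive log2 fold change, and the median was 0.53. How rRNA was depleted or mRNA selected is not given, so these counts show what the libraries captured and not the amount of rRNA in the cells.

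Factors that assemble and serve the ribosome moved in both directions as well. Of 24 tested assembly factors 6 rose and 3 fell, or 37.5% called, against 52.1% of all tested genes (25.5% higher and 26.6% lower). Fastkd2, an RNA-binding protein of large-subunit assembly, had 32, 34.2 and 35.1 CPM in Prr33-gRNA against 23.1, 23.2 and 24.7 CPM in Ctrl-gRNA (log2 fold change 0.51). Grsf1, which organises mitochondrial RNA granules, rose by 0.41 and Mterf4, which brings the rRNA methylase Nsun4 to the large subunit, by 0.38 on the log2 scale. Mterf4 shares 35.2% and Iars2, a synthetase described below, 24.2% of exonic bases with opposite-strand genes, so their levels are uncertain. Mettl17, an assembly factor of the small subunit encoded on chromosome 14, had 9.03, 8.08 and 8.15 CPM in Prr33-gRNA against 17, 16.4 and 17.4 CPM in Ctrl-gRNA (log2 fold change -1.01). Of 15 genes listed with the translation factors 5 rose and 3 fell, or 53.3% called. This list also holds the RNA-binding proteins Lrpprc and Slirp and the insertase Oxa1l. Mtif2, an initiation factor, rose by 0.43, and Lrpprc, which stabilises mitochondrial mRNAs, by 0.26. Mtif3, also an initiation factor, was not called (log2 fold change -0.14, edgeR adjusted p = 0.309). The membrane insertase Oxa1l and the release factor Mtrf1, both on chromosome 14, had log2 fold changes of -1.02 and -1.22. Slirp, the partner of Lrpprc, was the other gene of that list to fall. It had 7 to 31 counts in Prr33-gRNA and 41 or 42 in Ctrl-gRNA. Slirp shares 97.8% of its exonic bases with opposite-strand genes, so its level is uncertain. It was named after its value was seen.

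Of 17 mitochondrial tRNA synthetases 3 rose and 3 fell, or 35.3% called, against 52.1% of all tested genes. Nars2, which charges the asparagine tRNA and lies on chromosome 7, had 27.2, 25.8 and 27.2 CPM in Prr33-gRNA against 44.2, 45.9 and 47.6 CPM in Ctrl-gRNA. Its groups were well apart, with a log2 fold change of -0.78 (SE 0.07; edgeR adjusted p = 2.37e-11). Tars2, for the threonine tRNA, had a log2 fold change of -0.32, and Iars2 and Wars2, for the isoleucine and tryptophan tRNAs, had 0.18 and 0.47. The call on Wars2 was lost without Prr33-gRNA replicate 3 (edgeR adjusted p = 0.0689) and by limma on FPKM (adjusted p = 0.0557 and 0.0562). Over the subunits with other names, assembly factors, translation factors and synthetases together, 15 of 61 tested genes rose and 11 fell. Their median was 0.03, and 42.6% were called, against 52.1% of all tested genes. The 4 of these 61 on chromosome 14 all fell, by 0.92 to 1.22 on the log2 scale. Off that chromosome 15 rose and 7 fell, or 38.6% called, against 55.9% of tested protein-coding genes off chromosome 14.

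**Figure D4:**
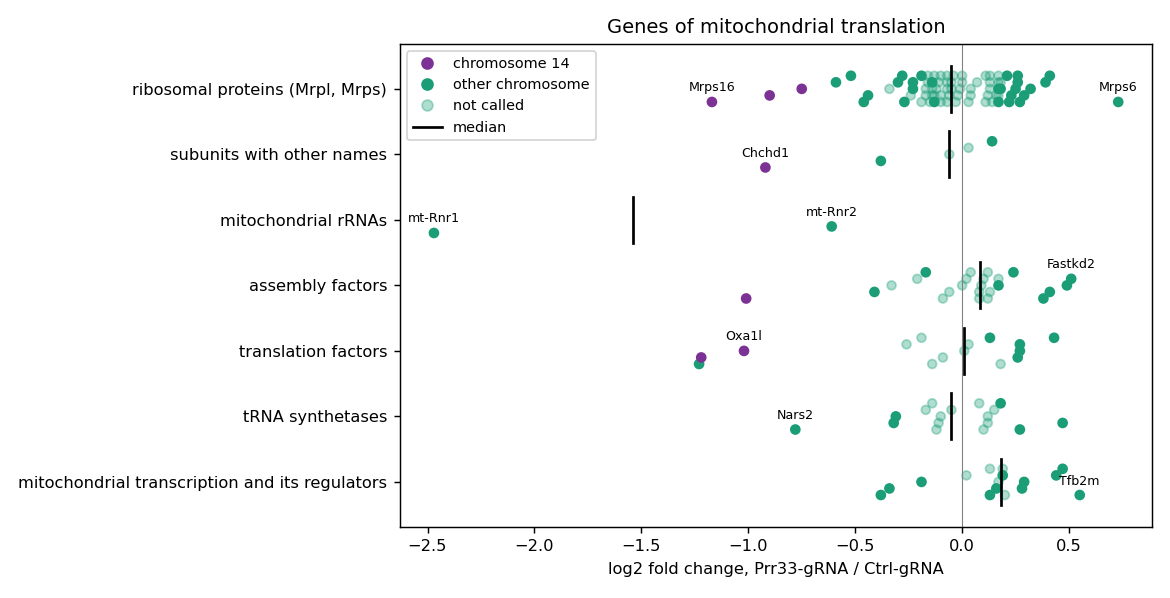
Log2 fold change of Prr33-gRNA over Ctrl-gRNA (x axis) for the ribosomal protein genes and for each list of related genes (y axis). Points are genes, purple on chromosome 14 and green elsewhere, pale where not called, and black lines are medians; mt-Rnr1 at -2.47 lies lowest, and the purple points lie between -1.22 and -0.75.

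Of 16 tested genes for mitochondrial transcription and its regulators 8 rose and 3 fell. The share called was 68.8%, against 52.1% of all tested genes (25.5% higher and 26.6% lower) and 57.1% of protein-coding ones, and their median was 0.18 on the log2 scale. Tfb2m, the initiation factor of mitochondrial RNA polymerase, had 44, 37.2 and 45 CPM in Prr33-gRNA against 28.4, 28.1 and 29.7 CPM in Ctrl-gRNA (log2 fold change 0.55, SE 0.08; edgeR adjusted p = 2.57e-07). Gabpa, the DNA-binding part of GABP, averaged 126 ± 6.13 CPM in Prr33-gRNA and 92.7 ± 0.982 CPM in Ctrl-gRNA (log2 fold change 0.44), and Yy1 averaged 135 ± 3.23 CPM in Prr33-gRNA and 111 ± 4.15 CPM in Ctrl-gRNA (0.29). Nrf1, whose word is marked in 2 of the stretches above, averaged 33.3 ± 2.01 CPM in Prr33-gRNA and 32.9 ± 2.68 CPM in Ctrl-gRNA and was not called. Myc, which activates ribosome synthesis genes, averaged 30.6 ± 2.54 CPM in Prr33-gRNA and 39.6 ± 2.16 CPM in Ctrl-gRNA (log2 fold change -0.38).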

How the data were processed

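RNA-seq of 3 Prr33-gRNA and 3 Ctrl-gRNA libraries was analysed, grouped by sample title. The authors deposited whole-read counts per gene, not normalized, and an FPKM table. CASAVA, HISAT2 2.0.5, featureCounts 1.5.0-p3 and the mm10 build are named, without roles, in the submitters' processing notes; no source used here gives the strand setting or annotation release. Genes were tested over all 14651 rows kept by filterByExpr with the quasi-likelihood test of edgeR 4.0.16 (R 4.3.3, TMM, robust), 2 groups, Benjamini-Hochberg, threshold 0.05. SE is the log2 fold change over the root of F. No 2 libraries of a group were duplicates (chi-square of their counts per gene 2.76 to 5.32). With scaled libraries 3 counts equal 0.150 to 0.182 CPM; this covers counting error only.

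Members, lists and tests were chosen with earlier results of these data known. Named were the 10 called members with the highest and the 10 with the lowest log2 fold change among those without overlap, all members on chromosome 14 or untested, the 3 most and 3 least abundant, a fixed set of subunits, and up to 4 genes per list by adjusted p; others were picked after their values were seen. Subunit, family and site follow textbook knowledge and were assigned after the values were seen. Exon overlaps come from GENCODE M21 (GRCm38), where all 78 members had the same start, end and exonic length. Alternatives were RLE, DESeq2 1.42.0, limma-voom 3.58.1, other filters, library size alone, the replicate number as a block, limma on deposited FPKM in log2 with pseudocounts of 1 and 0.1, each library left out, chromosome 14 left out and an adjusted p below 0.01. Figures used matplotlib 3.10.9. Not every exon overlap of the genes named is reported here, and levels of genes that share exons are uncertain.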

Additional observations from a re-analysis of the deposited data

How the results depend on the processing

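Scaling had the widest effect. With library size alone 26 members were higher and 9 lower, with 15 higher in the large subunit and 11 higher and 2 lower in the small subunit. Of all tested genes, too, more were higher than lower under this scaling. The members' median became 0.04, beside 0.09 for all tested genes, whose median with no filter on low counts was -0.05. At an adjusted p below 0.01 the small subunit kept a count of 2 higher and 2 lower. Leaving out 1 library at a time gave 12 to 15 members higher and 9 to 17 lower, 3 to 5 small-subunit genes higher and 2 to 5 lower, and a median of -0.08 to -0.01; the causes were not tested. The replicate numbers do not pair the libraries (correlations of deviations -0.02, 0 and 0.06; 1 of 3 libraries of each group correlated best with its own number), and a replicate block gave 16 members higher and 16 lower, a member median of -0.05 and -0.42 for Prr33. Across the 16 alternative fits 19 of the 30 called members were called in each fit that tested them, 10 higher and 9 lower. The 9 include the 3 members on chromosome 14, which were not in the fit that left that chromosome out. No called member was called in the opposite direction. Of 894 values of 53 named genes under alternatives, 27 lost the call, 2 gained it and 0 reversed. Members with few counts, such as Mrpl27, are the least precise.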
